A study of Mus musculus with 4 samples.

Results

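The transcription factor ATF4, its target genes of amino acid metabolism and stress, and the ER chaperone genes of the unfolded protein response were examined in control and SH-2251-treated Th2 cells. The list held 42 genes, chosen with earlier results of these data known and grouped by role from general knowledge of the pathways. A probe on the array was matched to 41 of them, and these 41 were well above background on all 4 arrays, among 13157 genes above background on at least 1 array. No probe was matched to Pycr1, a proline synthesis enzyme. The measured genes were Atf4 itself, 31 ATF4 targets and 9 genes of the ER.

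Splenic CD4 T cells of female C57BL/6J mice were grown into Th2 cells, the helper T cells that make IL-4, IL-5 and IL-13. The cells of all 4 samples received immobilized anti-TCR-β (3 µg/ml), anti-CD28 (1 µg/ml), IL-4 (10 ng/ml) and IL-2 (2.5 ng/ml) for 2 days. They then received the cytokines alone for 3 days. For 2 of the samples SH-2251, a small molecule of the thioamide type that was developed to lower the output of IL-5, was present through both phases. The cells were then left resting or were restimulated through the T cell receptor with immobilized anti-TCR-β for 4 h. The conditions were therefore resting control, resting SH-2251-treated, restimulated control and restimulated SH-2251-treated, with 1 array each. The sample labels gave the compound at 1 µM in the first phase and 1 mM in the second, whereas the study's methods gave 100 nM as the usual dose, so the dose is uncertain. The methods gave the mice as 6 to 10 weeks old and started from naïve CD4 T cells, while the labels named CD4 T cells of the spleen. The methods also listed an antibody to IFN-γ for Th2 cultures, which the labels did not list. Neither named a vehicle for the control cultures or the number of mice behind each sample. Whether resting and restimulated cells were taken from the same culture was not established.

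ATF4 is made when a kinase phosphorylates the translation factor eIF2α. GCN2 does this when uncharged tRNA accumulates, and PERK does it when unfolded proteins load the ER. General translation then falls while the Atf4 mRNA is translated more, and ATF4, often paired with a C/EBP protein, turns on genes for amino acid synthesis, amino acid import, tRNA charging and cell stress. The other arms of the unfolded protein response run through ATF6 and through IRE1, which splices the Xbp1 mRNA, and they raise chaperones such as BiP. Activated T cells use the same amino acid genes for growth.

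ATF4 with a C/EBP partner binds the CARE motif, TGATGNAA, and ATF6 binds the ERSE motif, CCAAT and CCACG with 9 bases between them, so both were searched on both strands of promoter windows running from 250 bases before to 50 bases after the transcription start (RefSeq, GRCm38.p6). A CARE match lay in 3.97% of 32851 windows of this length, which belonged to 27025 genes. Shares are by window, whereas members are counted by gene, with a match in any of the gene's windows. Among the 28 target genes with a window, 11 held a CARE match, namely Aars, Asns, Atf3, Chac1, Gars, Iars, Nupr1, Pck2, Pycr1, Trib3 and Vldlr. Cth, Eif4ebp1, Nars and Wars had no window. Among the 9 ER genes only Herpud1 held a CARE match, and Atf4 did not. The ERSE motif lay in 0.119% of the windows, in 0 of the 28 target genes and in 3 of the 9 ER genes, Calr, Hsp90b1 and Hspa5. A second form, ERSE-II (ATTGG and CCACG with 1 base between them), lay in 0.037% of the windows and, among the members, in Herpud1. The CRE motif (TGACGTCA), in 1.79% of the windows, was found among the targets in Ppp1r15a. These matches are descriptions of the letters and not measured sites of binding. The 250 bases before the start are printed for 3 targets with a CARE match, Nupr1 (chr7:126625471-126625720, minus strand), Chac1 (chr2:119350992-119351241, plus strand) and Asns (chr6:7693210-7693459, minus strand), each at least 3-fold higher on restimulation of control cells. They are set beside Herpud1 (chr8:94386179-94386428, plus strand), whose window holds both kinds of motif, and beside the chaperone genes Hspa5 (chr2:34771840-34772089, plus strand) and Hsp90b1 (chr10:86705445-86705694, minus strand). Each is written 5′ to 3′ toward the gene, and capitals mark the CARE match in the targets, the CARE and then the ERSE-II match in Herpud1, and the ERSE matches in the chaperones, on either strand.
Nupr1: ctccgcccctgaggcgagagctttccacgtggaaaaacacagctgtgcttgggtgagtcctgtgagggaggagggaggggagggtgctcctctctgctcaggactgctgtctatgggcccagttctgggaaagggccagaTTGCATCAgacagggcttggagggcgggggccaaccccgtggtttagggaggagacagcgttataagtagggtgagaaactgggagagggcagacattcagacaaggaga
Chac1: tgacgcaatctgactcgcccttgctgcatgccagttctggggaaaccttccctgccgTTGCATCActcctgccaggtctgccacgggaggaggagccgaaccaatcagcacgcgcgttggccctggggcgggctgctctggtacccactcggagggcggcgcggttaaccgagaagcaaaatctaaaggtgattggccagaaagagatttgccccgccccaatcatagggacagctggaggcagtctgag
Asns: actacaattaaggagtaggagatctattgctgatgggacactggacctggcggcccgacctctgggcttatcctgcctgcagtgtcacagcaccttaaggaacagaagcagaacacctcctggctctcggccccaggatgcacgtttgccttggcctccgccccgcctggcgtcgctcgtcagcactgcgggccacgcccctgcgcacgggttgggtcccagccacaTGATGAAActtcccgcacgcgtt
Herpud1: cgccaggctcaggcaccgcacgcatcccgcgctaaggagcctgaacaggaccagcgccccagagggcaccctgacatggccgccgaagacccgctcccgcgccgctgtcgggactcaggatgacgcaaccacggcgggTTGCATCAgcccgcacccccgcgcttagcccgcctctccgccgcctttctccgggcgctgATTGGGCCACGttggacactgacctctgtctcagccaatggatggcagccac
Hspa5: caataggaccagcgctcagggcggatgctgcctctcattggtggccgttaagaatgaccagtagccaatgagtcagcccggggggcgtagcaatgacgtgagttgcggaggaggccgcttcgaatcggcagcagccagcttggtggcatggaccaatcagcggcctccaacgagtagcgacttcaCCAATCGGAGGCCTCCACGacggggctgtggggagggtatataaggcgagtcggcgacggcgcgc
Hsp90b1: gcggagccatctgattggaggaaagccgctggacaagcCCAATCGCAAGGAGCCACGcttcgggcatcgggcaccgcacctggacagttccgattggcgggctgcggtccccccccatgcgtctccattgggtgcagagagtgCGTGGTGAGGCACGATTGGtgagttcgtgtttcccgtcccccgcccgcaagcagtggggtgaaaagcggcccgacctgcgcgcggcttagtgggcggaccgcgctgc

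The CARE match ended 103 bases before the first transcribed base of Nupr1, 186 before that of Chac1 and 16 before that of Asns. In Herpud1 the CARE match ended at base -105 and the ERSE-II match at base -42. The difference between SH-2251-treated and control cells was taken over the measured targets with a CARE match in the window and over those without, on the log2 scale. In resting cells the median was 0.47 over 10 genes with a match and 0.46 over 17 without, and after restimulation it was -0.21 and -0.16. For restimulation of control cells the medians were 1.63 and 1.25, and the ranges overlapped, at -0.43 to 2.90 and 0.46 to 1.87. For restimulation of treated cells the medians were 0.71 and 0.62. Cth, Eif4ebp1, Nars and Wars, which had no window, were in neither group.

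Levels are given as log2 intensity minus the 75th percentile of the array, so that 0 is the brightness that 75% of probes did not exceed, and levels of different genes are not compared because they come from different probes. Unless the text says otherwise, 4 levels in a row are those of resting control, resting SH-2251-treated, restimulated control and restimulated SH-2251-treated cells. Differences are log2 differences between arrays. The scanner software's error estimate gave each difference between a pair of arrays of the 41 genes a technical SD of 0.20 to 0.21, which covers error within the arrays only. No difference has a replicate check and no test was made. On the arrays, 56.0% to 56.7% of the probes were well above background, the 75th percentile lay between 499 and 614 intensity units, and no spot was saturated. Negative control spots were outside the software's range for net signal on 3 of the 4 arrays.

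The T cell markers Cd3e, Cd3g, Cd4 and Gata3 were above background on all 4 arrays, as were 7 of the 8 T cell and Th2 markers. With SH-2251, 0 of these 7 lay above 0 at rest, where 42.5% of all genes did, with a median of -0.21. After restimulation 2 of the 7 did, where 42.1% of all genes did, with a median of -0.22. Il13 differed by -1.32 at rest and -0.57 after restimulation. Of the other cell types, 5 of 6 B cell markers, 2 of 4 plasma cell markers, 2 of 5 CD8 T and NK cell markers, 2 of 5 myeloid markers and 1 of 3 red cell markers were above background throughout, whereas Pax5, Tnfrsf17, Ncr1, Klrb1c, Lyz2 and Itgam were below it on all 4. Summed over the measured B cell markers, the level was 465%, 535%, 372% and 576% of the 75th percentile. For the CD8 T and NK cell markers it was 176%, 184%, 444% and 387%, for the plasma cell markers 129%, 150%, 273% and 255%, for the myeloid markers 14.9%, 11.9%, 13.0% and 13.0%, and for the red cell marker Hba-a1 30.8%, 68.4%, 20.9% and 50.6%. The B cell and red cell sums were thus higher in the SH-2251-treated cells of both states. Of the single markers, the CD8 T cell marker Cd8a stood at -3.53, -2.07, -2.82 and -1.85 on the log2 scale, higher with SH-2251 by 1.45 at rest and 0.97 after restimulation. Nkg7, the other measured marker of that list, was brighter, at 0.75, 0.68, 2.10 and 1.84. Its SH-2251 differences were -0.07 at rest and -0.26 after restimulation. The plasma cell marker Sdc1 stood at -3.58, -2.66, -0.78 and -2.27, with SH-2251 differences of 0.91 at rest and -1.50 after restimulation. Jchain, the other measured plasma cell marker, was brighter, at 0.28, 0.42, 1.10 and 1.23. Its SH-2251 differences were 0.14 at rest and 0.13 after restimulation. The part of these cell types in the results was not tested. A lower share of cells expressing a gene and less RNA of it per cell cannot be told apart in such bulk samples.

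In resting Th2 cells, SH-2251 treatment went with higher levels of most of these genes. The difference was above 0 for 36 of the 41 members, where 42.5% of all 12684 genes compared lay above 0, and its median was 0.45, where that of all genes was -0.06. At least 2-fold higher levels were seen for 5 members, where 2.26% of all genes passed that size, namely Atf5, Trib3, Nupr1, Ddit3 and Gpt2. At least 2-fold lower levels were seen for 0 members, where 2.90% of all genes passed. At 1.5-fold, 10 members were higher, where 6.12% of all genes were, and 2 were lower (Ddit4 and Xbp1), where 7.45% of all genes were. Among the 31 targets 29 lay above 0, with a median of 0.46, and among the 9 ER genes 6 did, with a median of 0.24. With normexp, a background correction fitted on spot and local signals, over all spots, 23 targets lay above 0 with a median of 0.24, the ER median was 0.04, and 3 members were at least 2-fold higher. With normexp without spots of uneven local background or outlier spots, the values were 29 targets, medians of 0.46 and 0.31, and 5 members.

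After restimulation the SH-2251-treated and control cells lay closer together for these genes. Only 11 of the 41 members then lay above 0 and 30 lay below, where 42.1% of all 12623 genes lay above and 57.8% below. No member differed 2-fold, where 2.78% of all genes were that much lower and 2.65% that much higher. At 1.5-fold, only Atf5 was higher, where 6.90% of all genes were, and 0 members were lower, where 7.15% of all genes were. The median was -0.18 for the targets and -0.09 for the ER genes, where that of all genes was -0.06.

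**Figure D1:**
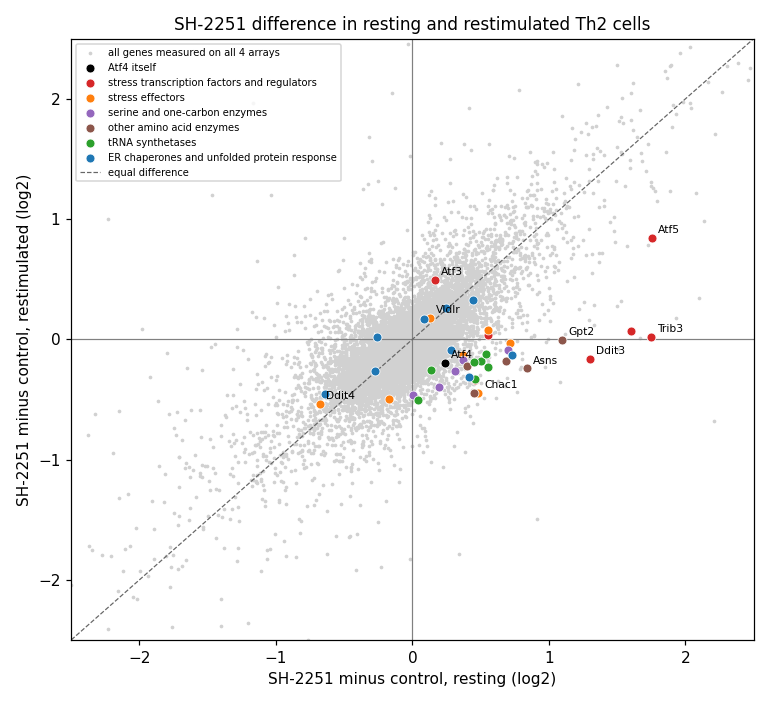
Each point is a gene, with the log2 difference between SH-2251-treated and control Th2 cells at rest on the horizontal axis and after restimulation on the vertical axis. Grey points are all 11518 genes measured on all 4 arrays, of which 42 lie beyond the axes, and coloured points are the 41 members by role. Trib3, Ddit3 and Gpt2 lie far to the right, above 1 at rest, but within 0.2 of 0 after restimulation, and most of the other members lie to the right of the vertical line and below the horizontal one.

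Restimulation of the control cells gave the widest differences. The difference was above 0 for 39 of the 41 members, where 45.2% of all 12758 genes lay above 0. At least 2-fold higher levels were seen for 27 of the 41 members, where 7.24% of all genes passed, and for 0 members lower, where 7.34% passed. The median was 1.35 for the targets and 0.44 for the ER genes, where that of all genes was -0.06. In SH-2251-treated cells the same comparison of restimulated with resting cells gave 36 of 41 members above 0, where 46.4% of all genes lay there, 24 at least 1.5-fold higher, where 14.8% passed, and 4 members at least 2-fold higher, where 7.09% of all 12613 genes passed, and 0 lower, where 6.98% passed. These 4 were Atf3, Cth, Chac1 and Hspa5. The median was 0.63 for the targets and 0.33 for the ER genes, where that of all genes was -0.05. With normexp over all spots 12 members passed in SH-2251-treated cells and the target median was 0.87.

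The comparisons of treatment at rest and of restimulation in control cells share the resting control array, so a low level there enters both. That array held the lowest of the 4 levels for 35 of the 41 members, where it was the lowest for 17.9% of the 11518 genes measured on all arrays, and the restimulated control array held the highest for 28, where it did so for 27.5%. For the targets alone these counts were 28 and 23 of 31, and for the ER genes 6 and 4 of 9.

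**Figure D2:**
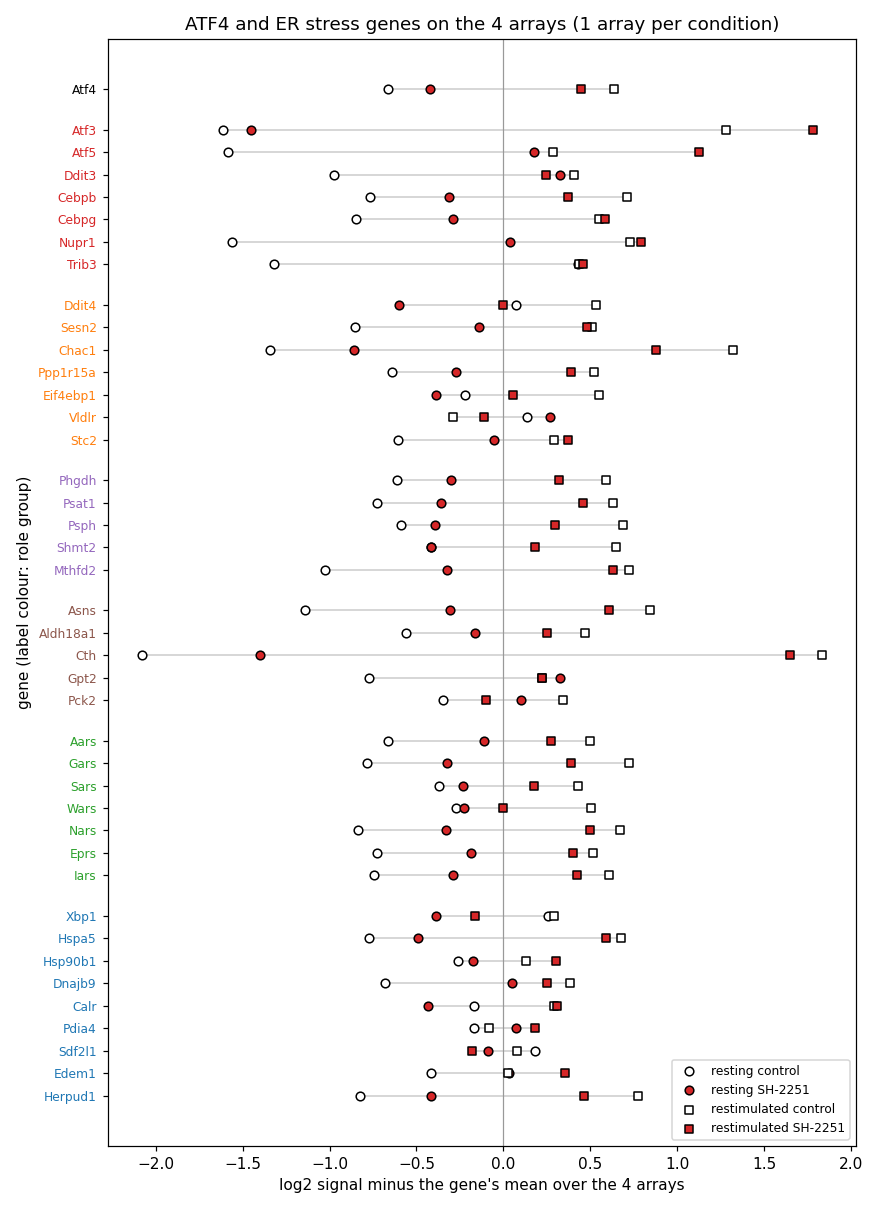
Each of the 41 members is a row, and its points give the level on each of the 4 arrays minus the gene's mean level over the 4 (log2 scale, horizontal axis), with members grouped by role and label colour. For most targets the resting control point lies furthest left, and for the 7 tRNA synthetases the order on the arrays is resting control, resting SH-2251-treated, restimulated SH-2251-treated and restimulated control.

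Atf4 itself was measured as mRNA, while its activity is set mainly by translation and was not measured. The level of Atf4 was 3.09, 3.33, 4.39 and 4.20. Both restimulated arrays stood above both resting arrays, and the treated and control cells of each state were close. The difference with SH-2251 was 0.24 at rest and -0.20 after restimulation, against technical SDs of 0.20, and with normexp over all spots the value at rest turned to -0.07. Restimulation made a difference of 1.30 in control cells and 0.87 in treated cells.

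The stress transcription factors and regulators held 4 of the 5 members that were at least 2-fold higher in treated resting cells. Atf3, Atf5, Ddit3, Cebpb, Cebpg, Nupr1 and Trib3 all lay above 0 in that comparison, where 42.5% of all genes did, with a median of 1.30. Trib3, a pseudokinase that binds AKT and is induced by ATF4 and CHOP, had levels of 3.51, 5.26, 5.27 and 5.29. Its resting control array stood alone at the low end, and the other 3 arrays lay within 0.03 of each other. The difference with SH-2251 was 1.75 at rest (3.36-fold) and 0.02 after restimulation, and restimulation made a difference of 1.76 in control cells and 0.03 in treated cells. Nupr1, a small chromatin-associated stress protein, ran from 1.08 to 2.68 at rest and stood at 3.37 and 3.44 after restimulation. The treated and control cells thus differed by 1.60 at rest and by 0.07 after restimulation.

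Ddit3, which encodes CHOP, the C/EBP-family factor that promotes apoptosis under lasting stress, had levels of 2.48, 3.78, 3.86 and 3.70. As with Trib3, only the resting control array was low, and the differences with SH-2251 were 1.30 and -0.16. Atf5, a bZIP factor of the mitochondrial stress response, was the only member at least 1.5-fold higher in treated cells of both states. Its levels were 2.79, 4.55, 4.66 and 5.50, a difference of 1.76 at rest (3.38-fold) and 0.84 after restimulation (1.80-fold).

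Atf3, an immediate stress-response repressor and activator, differed far more with restimulation than with SH-2251. The levels were 1.37, 1.53, 4.26 and 4.76, and restimulation made a difference of 2.90 in control cells (7.44-fold) and 3.23 in treated cells (9.38-fold). The difference with SH-2251 was 0.16 at rest and 0.50 after restimulation. Cebpb and Cebpg, C/EBP factors that can pair with ATF4, had smaller differences with SH-2251, 0.46 and 0.56 at rest and -0.34 and 0.03 after restimulation. Cebpb stood at -0.01, 0.45, 1.47 and 1.13, and Cebpg at 0.21, 0.77, 1.61 and 1.65. Other probes of Cebpg gave differences with restimulation of control cells of 0.54 and 1.49, against 1.40 for the probe used. The size of that difference is thus uncertain.

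The stress effectors were more mixed. Of the 7, 5 lay above 0 and 2 below with SH-2251 in resting cells, where 42.5% of all genes lay above. Their median was 0.37. Ddit4 (REDD1), which restrains mTORC1, was lower in treated cells of both states, with levels of 6.99, 6.32, 7.45 and 6.91. Its differences with SH-2251 were -0.68 (1.60-fold lower) at rest and -0.53 after restimulation, opposite in sign at rest to most targets. Sesn2, a leucine sensor that also restrains mTORC1, had levels of 2.69, 3.41, 4.06 and 4.03, with differences of 0.71 and -0.03.

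Chac1, an enzyme that breaks down glutathione, was among the members that differed most with restimulation. The levels were 1.82, 2.30, 4.49 and 4.04, so that restimulation made a difference of 2.67 in control cells (6.34-fold) and 1.74 in treated cells (3.33-fold). The SH-2251 difference was 0.48 at rest and -0.45 after restimulation. Ppp1r15a (GADD34), which brings a phosphatase to eIF2α and so closes the feedback loop, had levels of -0.16, 0.21, 1.00 and 0.87. Its differences with SH-2251 were 0.37 and -0.13. Of the rest, Stc2, a secreted glycoprotein, was 0.56 higher at rest in treated cells. Eif4ebp1, a translation repressor under mTORC1, had a difference of -0.17 at rest by the probe used and 0.03 by its other probe. Vldlr, a lipoprotein receptor, was the only target below 0 on restimulation of control cells, at -0.43. The probes of Eif4ebp1 disagreed on restimulation of control cells (0.77 and 1.85), as did those of Vldlr (-0.43 and -0.90).

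For the enzymes of serine synthesis and the mitochondrial one-carbon pathway, the SH-2251 difference ran from 0.00 to 0.70 at rest. In treated against control cells all 5 lay above 0 at rest, where 42.5% of all genes did, with a median of 0.31. All 5 lay below 0 after restimulation, where 57.8% of all genes did, with a median of -0.27. On restimulation of control cells all 5 were at least 2-fold higher, between 1.06 and 1.75, where 7.24% of all genes passed. In treated cells none was, with values between 0.60 and 0.96, where 7.09% of all genes passed. Phgdh, Psat1 and Psph catalyze the successive steps from 3-phosphoglycerate to serine. Their levels were 6.12, 6.43, 7.32 and 7.05 for Phgdh, 4.13, 4.50, 5.49 and 5.31 for Psat1, and 3.51, 3.70, 4.78 and 4.39 for Psph. The restimulated control array was the highest for each, and the resting control array the lowest. Shmt2, which moves the one-carbon unit of serine to folate in mitochondria, stood at 3.74, 3.75, 4.81 and 4.35, and its difference with SH-2251 at rest was 0.00. Mthfd2, the folate dehydrogenase that follows it, differed most with SH-2251 at rest within the group. It stood at 1.60, 2.31, 3.36 and 3.27, a difference of 0.70 at rest and -0.09 after restimulation.

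Of the other enzymes of amino acid metabolism 5 were measured. Each lay above 0 with SH-2251 at rest, where 42.5% of all genes did, with a median of 0.68. Each lay below 0 after restimulation, where 57.8% of all genes did, with a median of -0.22. Asns, which makes asparagine from aspartate and glutamine, stood at 5.18, 6.02, 7.17 and 6.94. The treated level lay above control at rest by 0.84 (1.79-fold) and below it after restimulation, by a difference of -0.24. Gpt2, the mitochondrial alanine aminotransferase, had levels of 1.11, 2.21, 2.11 and 2.11. The resting control array was again alone at the low end, with a difference of 1.10 (2.14-fold) at rest and -0.00 after restimulation.

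Cth, which releases cysteine from cystathionine, had the largest restimulation difference of the members in control cells. It stood at -1.21, -0.53, 2.70 and 2.52, which was 3.91 in control cells (15.1-fold) and 3.05 in treated cells (8.27-fold). The SH-2251 difference was 0.68 at rest and -0.18 after restimulation. Aldh18a1, the first enzyme of proline synthesis from glutamate, stood at 1.34, 1.74, 2.37 and 2.15. Pck2, the mitochondrial form of PEP carboxykinase, stood at 4.12, 4.57, 4.81 and 4.37, so that treated cells were 0.45 above control at rest and at -0.44 after restimulation.

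All 7 tRNA synthetases among the targets lay above 0 with SH-2251 at rest (0.04 to 0.55), where 42.5% of all genes did. All 7 lay below 0 after restimulation (-0.51 to -0.12), where 57.8% of all genes did. On restimulation they lay between 0.77 and 1.51 in control cells and between 0.22 and 0.83 in treated cells. Each of these cytosolic enzymes loads its tRNA with the amino acid that its symbol abbreviates, Aars with alanine and Gars with glycine. Aars stood at 4.93, 5.48, 6.09 and 5.86, and Gars at 1.23, 1.68, 2.73 and 2.40. Nars stood at 1.71, 2.22, 3.22 and 3.05, Eprs at 2.58, 3.12, 3.82 and 3.70, and Iars at 3.59, 4.04, 4.95 and 4.76. Control cells thus ran from the lowest to the highest of the 4 levels on restimulation, and treated cells moved within those bounds. Sars and Wars showed the smallest SH-2251 differences at rest, 0.13 and 0.04.

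The synthetases that are not on the target list were examined beside them. Of 13 other cytosolic synthetases, 6 lay above 0 and 7 below with SH-2251 at rest, where 42.5% of all genes lay above. Their median was -0.01. All 13 lay below 0 after restimulation, where 57.8% of all genes did, with a median of -0.30. On restimulation of control cells 5 were at least 2-fold higher, where 7.24% of all genes passed. These were Cars at 1.66, Yars at 1.33, Tars at 1.22, Lars at 1.04 and Farsb at 1.02. In treated cells only Rars was (1.07), where 7.09% of all genes passed. Cars, for cysteine, had the largest SH-2251 difference at rest of the 13, at 0.50, and one of -0.36 after restimulation. The 17 mitochondrial synthetases had medians of -0.08 at rest and -0.25 after restimulation.

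**Figure D3:**
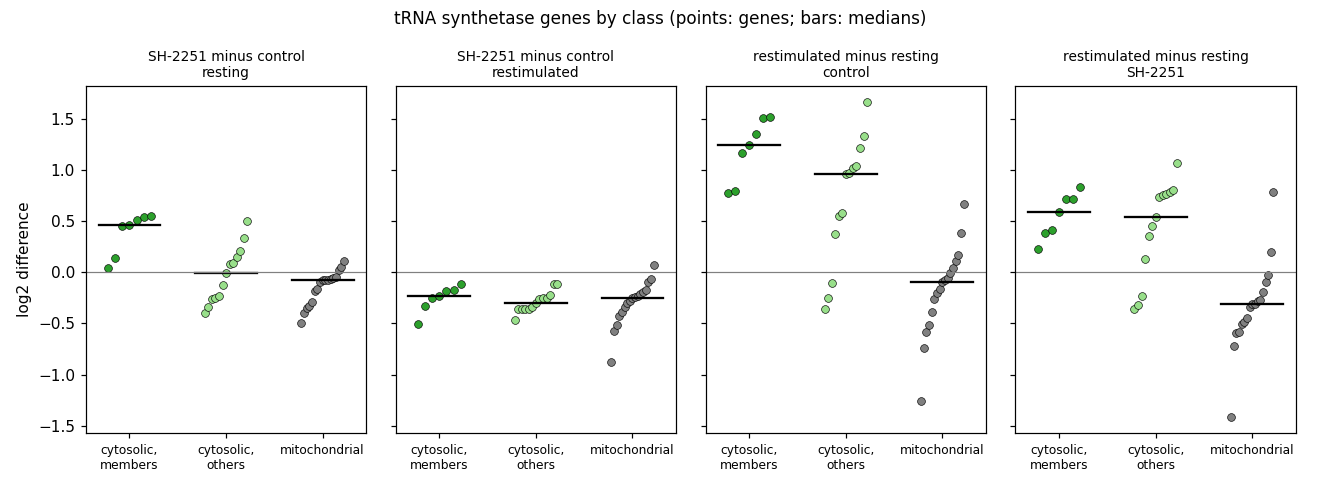
Points give the log2 difference of each tRNA synthetase gene in the 4 comparisons, for the 7 targets, the 13 other cytosolic and the 17 mitochondrial synthetases, and bars mark group medians. In resting cells the SH-2251 median is 0.46 for the targets, -0.01 for the other cytosolic and -0.08 for the mitochondrial enzymes.

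The 9 ER genes lay on both sides of 0 with SH-2251 at rest, from -0.64 to 0.73. Hspa5, which encodes the main ER chaperone BiP, stood at 6.36, 6.64, 7.81 and 7.72. Restimulation made a difference of 1.45 in control cells and 1.08 in treated cells, and SH-2251 one of 0.28 at rest and -0.09 after restimulation. Herpud1, which serves ER-associated degradation, stood at 3.19, 3.60, 4.79 and 4.48, with restimulation differences of 1.60 and 0.88. Both differed more with restimulation than with SH-2251, and the restimulation difference was smaller in the treated cells.

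Dnajb9 (ERdj4), a BiP cochaperone, differed most with SH-2251 at rest among the ER genes. Its levels were -0.95, -0.22, 0.11 and -0.02, and the difference at rest was 0.73, with 0.56 and 1.04 by its other 2 probes. Xbp1, whose mRNA is spliced by IRE1, went the other way, with levels of 4.03, 3.39, 4.06 and 3.61. The treated level lay below control in both states, by differences of -0.64 and -0.45, and the restimulation difference was small (0.04 in control and 0.22 in treated cells). Splicing of Xbp1 was not measured.

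The other 5 ER genes were all under 2-fold in every comparison, where 2.26% to 7.34% of all genes passed that size in each direction. Hsp90b1 (GRP94), the ER form of HSP90, differed by 0.08 and 0.17 with SH-2251, and the disulfide isomerase Pdia4 by 0.24 and 0.26. Calr, the lectin chaperone calreticulin, differed by -0.26 and 0.02, and Sdf2l1, a partner of BiP, by -0.27 and -0.26. Edem1, which marks misfolded glycoproteins for degradation, differed by 0.45 and 0.33. The other probes of Edem1 gave 0.24 and 0.11 at rest, and 0.40 and 0.27 after restimulation. Restimulation of control cells made a difference of 0.39 for Hsp90b1, 0.46 for Calr, 0.44 for Edem1, 0.09 for Pdia4 and -0.10 for Sdf2l1.

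A further 22 genes of the unfolded protein response and ER quality control had medians close to 0 with SH-2251, at 0.03 at rest and -0.02 after restimulation, and of 0.57 and 0.52 with restimulation of control and treated cells. Among them Atf6, the membrane-bound sensor and factor, was higher with restimulation by 1.67 in control and 1.11 in treated cells, and with SH-2251 by 0.77 at rest and 0.22 after restimulation. Ero1l, the oxidase that feeds disulfide isomerases, was higher with restimulation by 1.40 and 1.10. No other of the 22 passed 2-fold. Of 12 measured genes for the eIF2 kinases, eIF2 subunits, its exchange factor and a phosphatase subunit, none passed 2-fold. In each comparison 2.26% to 7.34% of all genes passed it in each direction. The medians of the 12 with SH-2251 were -0.17 at rest and -0.21 after restimulation.

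Among 8 other measured folate enzymes, Aldh1l2, the mitochondrial formyltetrahydrofolate dehydrogenase, was lowest on the resting control array, on a dim probe. Its levels were -3.57, -1.47, -1.73 and -1.38, with SH-2251 differences of 2.10 at rest (4.30-fold) and 0.34 after restimulation. Shmt1, the cytosolic counterpart of Shmt2, differed by 1.71 and 1.52 with restimulation of control and treated cells, and by -0.62 and -0.82 with SH-2251. The median of the 8 with SH-2251 was -0.16 at rest, and 3 of the 8 lay above 0, where 42.5% of all genes did.

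The difference between the SH-2251 effects of the 2 states (restimulated minus resting) was taken for each gene after the values above had been seen. It lay below 0 for 28 of the 31 targets and 4 of the 9 ER genes, where 47.5% of all 11518 genes lay below 0. Its technical SD was 0.29 for each member. The median was -0.66 for the targets, 0.01 for the ER genes and 0.01 for all genes. At least 2-fold lower values were found for 5 members, where 0.478% of all genes passed. These were Trib3 (-1.73), Nupr1 (-1.53), Ddit3 (-1.46), Gpt2 (-1.10) and Asns (-1.08). At 1.5-fold, 20 members were lower, where 2.39% of all genes were. At least 2-fold higher values were found for 0 members, where 0.738% passed. With normexp over all spots 3 members were at least 2-fold lower and the target median was -0.43, with 27 of 31 below 0. The same value is, by arithmetic, the difference between the restimulation effects of treated and control cells. It also contains the resting control array, so a low level there lowers it.

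**Figure D4:**
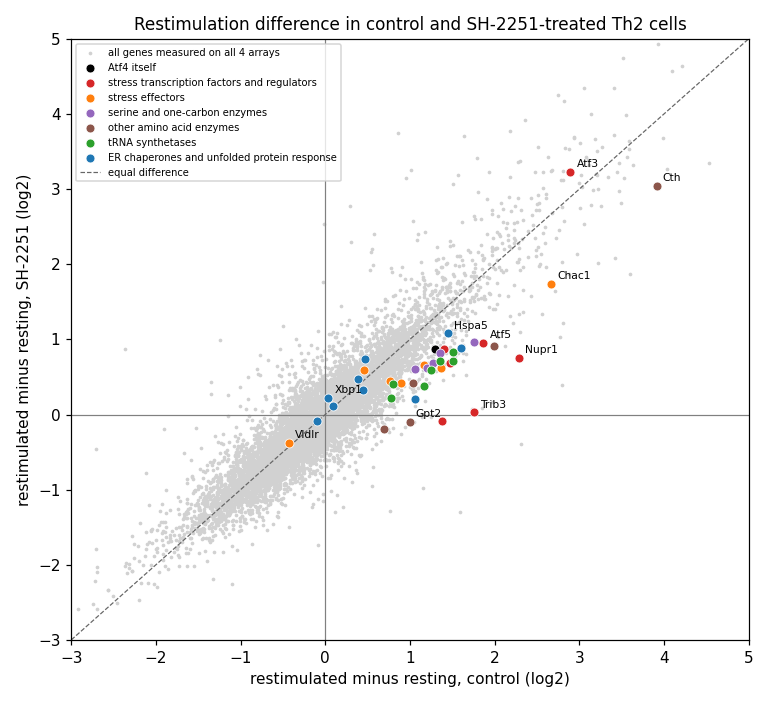
Each point is a gene, with the log2 difference between restimulated and resting control cells on the horizontal axis and that between restimulated and resting SH-2251-treated cells on the vertical axis. Grey points are all 11518 genes measured on all 4 arrays, of which 17 lie beyond the axes, and coloured points are the 41 members by role. Most members lie right of 0 and below the line of equal difference, with Trib3 at 1.76 and 0.03, whereas Atf3 lies above it at 2.90 and 3.23.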

How the data were processed

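RNA from 4 Th2 cell samples was hybridised to single-colour (Cy3) Agilent whole mouse genome arrays, 1 per condition, on 1 slide in 1 scan. Each sample's condition was read from its labels. The authors deposited 1 scanner file per array, whose intensity values Feature Extraction 10.7.3.1 had already freed of background and spatial trends, and a table of log2 values, which equal the deposited intensities on the log2 scale minus a constant per array within 0.01 for over 99% of probes. The array design used the mm9 build.

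From the intensities, log2 values minus the 75th percentile of each array were computed. Control and outlier spots (77 to 106 per array) were left out. Probes were named through RefSeq transcripts (assembly GRCm38.p6). A match was found for 27198 of 41174 probes (66.1%), which named 18539 genes, and the brightest probe stood for a gene. A gene entered a comparison if either of its arrays held it well above background, and a dim side was set to a bound. With 1 array per condition there is no test, and the precision is limited by the number of arrays. At least 2-fold was the size called. The rule for naming genes was Atf4, members differing at least 1.5-fold with SH-2251 or 2-fold with restimulation, and genes of the comparison lists differing at least 2-fold, with other members given by single values. Some genes of the comparison lists that meet this rule are not reported here. Members and lists were chosen with earlier results of these data known. Promoter windows came from RefSeq. The procedure was tested on simulated data. All planted changes were larger than 2-fold and the noise was below the scanner software's error, so smaller differences were not covered. Other scalings, background corrections, probe rules, filters and fold sizes were tried. Python 3.11.15, numpy 2.4.6, pandas 2.3.3, matplotlib 3.10.9, R 4.3.3 and limma 3.58.1 were used.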

Additional observations from a re-analysis of the deposited data

Results flagged for a closer look

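Treated cells stood above control cells at rest and below them after restimulation, each by more than the technical SD, for 9 of the 41 members, where 0.799% of 11518 genes did so. The number of members was 4 with normexp over all spots, where 4.12% of genes did so, and 7 with median centring or quantile normalization. The difference between the states was not tested, since each condition has 1 array. The value given for each also contains the resting control array. It is the SH-2251 difference after restimulation minus that at rest, on the log2 scale. Because of how these 9 members were picked, it had to be negative and beyond a least size. It was -1.08 for Asns, -0.93 for Chac1, -0.89 for Pck2, -0.80 for Cebpb, -0.79 for Gars, -0.78 for Aars, -0.62 for Aldh18a1 and -0.58 for Phgdh among the ATF4 targets, and -0.72 for Herpud1 among the ER genes.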

How the results depend on the processing

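The 25 counts and medians covered the 4 comparisons and the difference between the SH-2251 effects, a quantity chosen after seeing the data. A count stayed if it lay within 1.5-fold of the main one. A median stayed if it moved by less than the median technical SD of a gene, 0.20, or 0.29 for the difference between the effects. All 25 stayed under median centring, quantile normalization and the authors' table. They also stayed with normexp without spots of uneven background, the mean of probes, and a stricter or no filter. A median smaller than its limit could still change sign. The ER median of the SH-2251 difference after restimulation did so, from -0.09 to 0.03 with both normexp versions. Normexp over all spots moved 6 of the 25 beyond the limits. Members at least 2-fold higher at rest with SH-2251 were then 3, the target median there was 0.24 and the ER median 0.0375. With restimulation of treated cells 12 members were at least 2-fold higher and the target median was 0.87, and 3 members were at least 2-fold lower in the difference between the effects. With normexp without spots of uneven background or outlier spots these values stayed within the limits. Both normexp versions gave a target median of -0.16 for SH-2251 after restimulation and of 1.28 for restimulation of control cells. Their target medians differed where the resting SH-2251-treated array entered. With all spots and without the uneven ones they were 0.24 and 0.46 at rest, and 0.87 and 0.61 with restimulation of treated cells. The reason was not tested. Of the single genes 2 turned sign with normexp over all spots, Atf4 with SH-2251 at rest (-0.0665) and Eif4ebp1 in the difference between the effects (0.0516). At a 1.5-fold size, 10 members were higher and 2 lower at rest with SH-2251, 1 was higher after restimulation, 24 were higher with restimulation of treated cells and 20 were lower in the difference between the effects. At 3-fold, 3 were higher at rest, 9 were higher with restimulation of control cells and 1 was lower in the difference between the effects. No paired analysis was possible because each condition has 1 array. The largest shift of the median of all genes was 0.0827, for restimulation of control cells with neither filter nor bound, where that median turned from -0.06 to 0.02. The limits are the single array per condition, an uncertain dose, levels that cannot be set against each other between genes, and probes that were chosen by brightness.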
